A study of Mus musculus with 8 samples.

Results

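The genes followed here are 10 markers of macrophages, read in mouse dorsal root ganglia, which house the cell bodies of sensory neurons. They are Cd163, Mrc1, Csf1r, Cx3cr1, Cd68, Lyz2, Aif1, C1qa, C1qb and C1qc, chosen by name, and all 10 were among the 40800 genes of the table. Total RNA was sequenced from 4 wild-type C57BL/6 mice and from 4 mice homozygous for a Tmem184b gene trap on a C57BL/6 background, all 6 months old. Such a trap is inserted DNA that diverts splicing and truncates the transcript, and the labels restrict it to no cell type. Samples are named by genotype and number, wild types 1, 3, 4 and 8 and mutants 1, 2, 3 and 4. The labels give no sex, litter or dissection date.

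Macrophages settle in ganglia around the neuron cell bodies and their satellite glia and along the vessels, where they take up debris and respond to nerve injury. They depend on signals through the receptor encoded by Csf1r, and they are the main source of the complement starter protein C1q in many tissues. Cells that lie along vessels and connective tissue are commonly recognised by the scavenger receptors CD163 and CD206, the second of which is encoded by Mrc1.

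Library totals were 6183618 to 7983821 reads, and the 10 genes had between 1 and 215 reads per library. Tmem184b spanned 7.36 to 7.51 log2 CPM across wild types, against 2.47 to 3.10 across mutants, so its level followed the genotype label in all 8 samples (limma adjusted p = 2.57e-12). Log2 CPM is the logarithm of reads scaled to a library of 1000000, with a small prior count added, so 0 reads stand at -1.79 and folds of genes with few reads are understated. Pan-neuronal genes summed to 9990 to 11300 CPM in the 8 libraries, so the tissue's defining neurons were present throughout. The macrophage label was checked against a list of 25 general macrophage genes, all of which passed the filter on low values. The pan-leukocyte gene Ptprc was at 1.97 to 3.19 log2 CPM and the macrophage gene Adgre1 at 1.13 to 2.87, so transcripts of such cells were present at a low level. Markers of other blood cells were partly near 0, with 3.33 to 16.3 CPM summed over 11 monocyte and neutrophil genes and 22.2 to 65.3 over 13 lymphocyte genes. At most 3 reads in every library were found for 3 of the 11 monocyte and neutrophil genes, Ly6c2, Plac8 and Ly6g. The same held for 8 of the 13 lymphocyte genes, among them the T cell genes Cd3e, Cd3d, Cd3g and Cd8a. The filter on low values was passed by 4 of the 11 and 2 of the 13.

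Cd163 was the one macrophage gene of the 10 that rose in the mutant past the threshold, by 0.80 on the log2 scale, a 1.74-fold change. Mrc1, C1qb, C1qa and Csf1r had higher means in the mutant, at 0.63, 0.74, 0.53 and 0.41, and did not pass. Lyz2, C1qc and Cx3cr1 differed by 0.34, 0.21 and 0.13, and Cd68 by -0.19. Aif1 had too few reads to be tested. Groups overlapped for all 10 genes.

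The comparison asked how these genes differ in ganglia that lack most Tmem184b transcript, with limma fitted over 15030 genes and an adjusted p under 0.05 as the threshold. Of the 10 genes, 9 passed the filter of a log2 CPM above 0 in at least 4 of 8 samples, 8 of these had a higher mean in the mutant, and 1 was called. Among all tested genes 5.46% were called, 2.81% as higher in the mutant and 2.64% as lower, and the count of 1 among the 9 rests on Cd163 alone. Groups failed to overlap for 12.4% of all tested genes, 7.5% with the mutant above and 4.92% with the mutant below, and for 0 of the 10. The median difference of the 9 genes was 0.41, beside 0.066 for all tested genes, of which 64.4% had a higher mean in the mutant. Unadjusted p (limma) was under 0.05 for 5 of the 9. That share over all tested genes was not counted, but it is at least the 5.46% that passed after adjustment. The same limit holds for the unadjusted counts of other lists below. In bulk tissue, more cells of a type and more RNA per cell cannot be told apart.

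**Figure D1:**
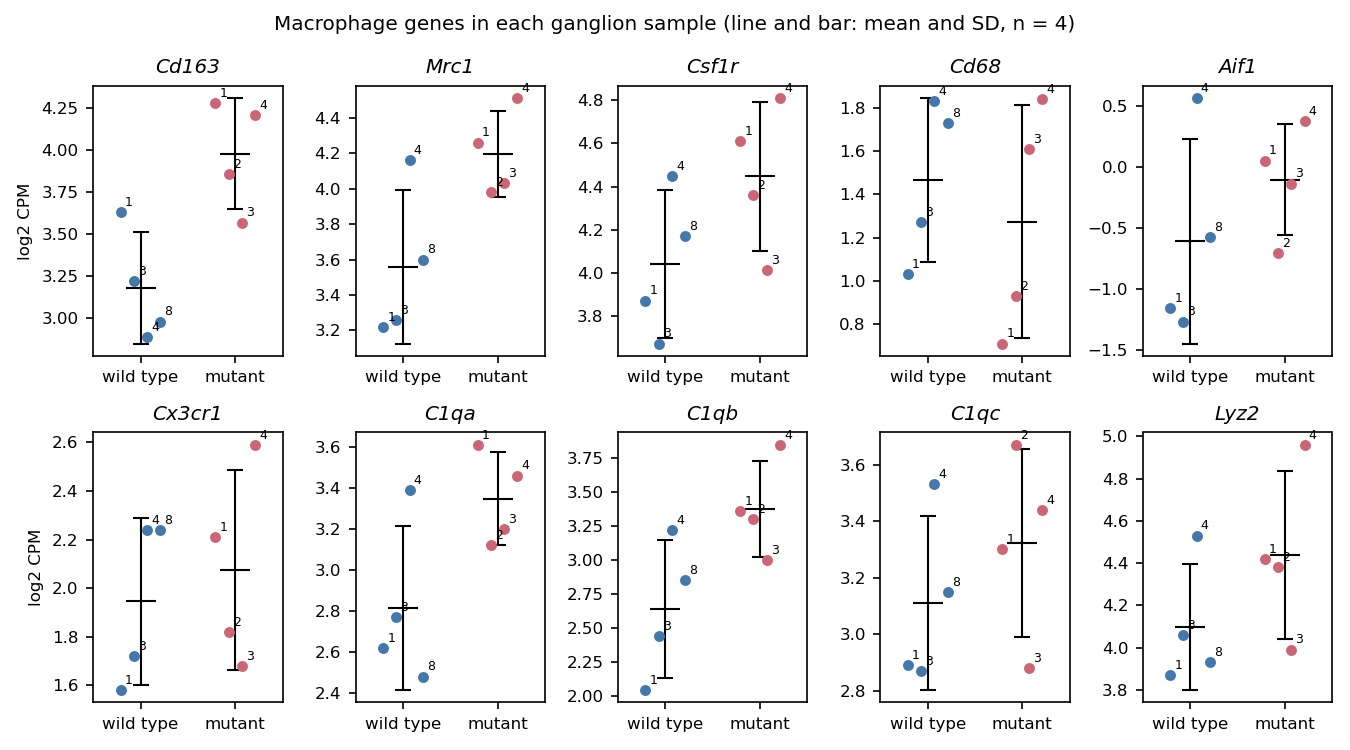
Log2 CPM of each macrophage gene (vertical axis, its own range in each panel) in 4 wild-type and 4 mutant samples, with the sample number beside each point and the mean and SD as a line and bar. In every panel at least 1 mutant lies below at least 1 wild type, and wild type 4 is the highest wild type in each panel except that of Cd163.

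Cd163 (ENSMUSG00000008845; chromosome 6, 124304656 to 124330527, GRCm38) encodes a scavenger receptor that takes up complexes of haptoglobin and hemoglobin. Cd163 measured 3.63, 3.22, 2.89 and 2.98 log2 CPM across wild types 1, 3, 4 and 8, against 4.28, 3.86, 3.57 and 4.21 across mutants 1 to 4, the order kept below. Mutants 1, 2 and 4 exceeded every wild type, and mutant 3 lay just under wild type 1. Means were 8.94 ± 2.23 CPM for wild type, from 48 to 76 reads, against 15.8 ± 3.52 CPM for the mutant, from 75 to 128 reads (SD, n = 4). The difference was 0.80 (SE 0.184; 95% interval 0.41 to 1.19; limma adjusted p = 0.0208). It kept its direction in all 21 alternatives and its call in 15 of them. The call was lost when wild type 8, mutant 1 or mutant 4 was left out, at adjusted p of 0.0552, 0.0727 and 0.0631, and without the mean-variance trend at 0.11 (limma).

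Mrc1 (ENSMUSG00000026712; chromosome 2, 14229392 to 14332057) encodes the mannose receptor, which binds and internalises sugars of pathogens and of shed glycoproteins. Mrc1 measured 3.22, 3.26, 4.16 and 3.60 log2 CPM across the wild types, against 4.26, 3.98, 4.03 and 4.51 across the mutants. Wild type 4 was as high as the middle of the mutants, and the other 3 wild types lay below all mutants. The difference of 0.63 did not pass (SE 0.187; 95% interval 0.23 to 1.03; limma adjusted p = 0.0650). Without wild type 4 it was 0.83 and passed (limma adjusted p = 0.00637). Over the 21 alternatives Mrc1 was called in 3. The gene holds the microRNA gene Mir511 on the same strand, which had at most 1 read in any library.

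The promoters of Cd163 and C1qb, which had the largest differences of the 10 genes, are shown because macrophage genes are known for binding sites of the transcription factor PU.1, whose core is GAGGAA. Capitals mark GAGGAA on either strand in the 250 bases before the start site, read 5′ to 3′ on the gene's strand from RefSeq's table for GRCm38.p6. Cd163 is at chr6:124304401-124304650, plus strand, in a window that also overlaps the annotated gene Gm25311, and C1qb is at chr4:136886201-136886450, minus strand.
Cd163: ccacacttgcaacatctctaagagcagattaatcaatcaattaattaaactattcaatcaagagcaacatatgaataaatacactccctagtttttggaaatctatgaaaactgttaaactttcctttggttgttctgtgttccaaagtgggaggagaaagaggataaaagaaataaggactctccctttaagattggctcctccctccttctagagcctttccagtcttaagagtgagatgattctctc
C1qb: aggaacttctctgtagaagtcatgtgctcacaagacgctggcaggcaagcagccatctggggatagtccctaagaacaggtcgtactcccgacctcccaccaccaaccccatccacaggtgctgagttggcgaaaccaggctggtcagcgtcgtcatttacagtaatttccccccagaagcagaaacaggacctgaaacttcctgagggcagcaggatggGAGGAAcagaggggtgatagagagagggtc
The C1qb window holds 1 match, 30 to 25 bases before the start, and the Cd163 window holds 0. GAGGAA or its complement was present in 5 of the 8 promoters found for these genes (Aif1, C1qb, C1qc, Cd68 and Mrc1, and not Cd163, Cx3cr1 or Lyz2) and in 23.3% of 32851 promoters of the same length. The AP-1 motif TGANTCA was in 1 of the 8, that of Cd68 with 2 matches, against 6.75% of all promoters. TATAAA was in 0 of the 8 and in 12.4% of all. These are matches of letters, and no binding was measured.

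C1qa, C1qb and C1qc encode the A, B and C chains that together form C1q, the protein that starts the classical complement cascade. The 3 genes lie side by side on the minus strand of chromosome 4, within 18675 bases (136880129 to 136898803). C1qb measured 2.04, 2.44, 3.22 and 2.85 log2 CPM across the wild types, against 3.36, 3.30, 3.0 and 3.85 across the mutants. Only wild type 4 reached into the mutant range. The difference was 0.74 (SE 0.236; 95% interval 0.24 to 1.25; limma adjusted p = 0.0839). C1qa measured 2.62, 2.77, 3.39 and 2.48 log2 CPM across the wild types, against 3.61, 3.12, 3.20 and 3.46 across the mutants, again with wild type 4 alone inside the mutant range. Its difference was 0.53 (SE 0.193; 95% interval 0.12 to 0.95; limma adjusted p = 0.124). C1qc measured 2.89, 2.87, 3.53 and 3.15 log2 CPM across the wild types, against 3.30, 3.67, 2.88 and 3.44 across the mutants. Here mutant 3 was as low as the lowest wild types, and the difference was 0.21 (SE 0.187; 95% interval -0.19 to 0.61; limma adjusted p = 0.555). Without wild type 4, C1qa at 0.73 (limma adjusted p = 0.02) and C1qb at 0.93 (0.0237) passed and C1qc at 0.35 did not. Over the 21 alternatives C1qa and C1qb were each called in 2 and C1qc in 0. Of the summed CPM of the 3 chains, C1qb made up 22.6%, 27.5%, 29.6% and 33.3% across the wild types, against 31.8%, 31.4%, 32.5% and 39.9% across the mutants, so those ranges overlapped as well.

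Csf1r (ENSMUSG00000024621; chromosome 18, 61100598 to 61132149) encodes the receptor for the growth factors CSF1 and IL-34, on which macrophages rely for survival. Csf1r measured 3.87, 3.67, 4.45 and 4.17 log2 CPM across the wild types, against 4.61, 4.36, 4.01 and 4.81 across the mutants. Mutants 1 and 4 were above all wild types, while mutant 3 was below wild types 4 and 8. The difference was 0.41 (SE 0.179; 95% interval 0.03 to 0.79; limma adjusted p = 0.201). Csf1r shares 873 exon bases with Hmgxb3 on the other strand in GENCODE M21, and whether counting used the strand is not given in the sources used here, so its count is uncertain.

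Cx3cr1 (ENSMUSG00000052336; chromosome 9) encodes the receptor for fractalkine, the chemokine that neurons display to macrophages. Cx3cr1 measured 1.58, 1.72, 2.24 and 2.24 log2 CPM across the wild types, against 2.21, 1.82, 1.68 and 2.59 across the mutants. Mutant 4 was above all wild types, and the others lay among them. The difference of 0.13 had a 95% interval from -0.38 to 0.64 (limma adjusted p = 0.803), which leaves room for a change in either direction. It was -0.04 without mutant 4. The gene shares 78 exon bases with Gm33858 on the other strand, so a few of its reads may belong there.

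Lyz2 and Cd68 encode proteins of the digestive compartment, lysozyme and a lysosomal membrane glycoprotein. Lyz2 (ENSMUSG00000069516; chromosome 10) measured 3.87, 4.06, 4.53 and 3.93 log2 CPM across the wild types, against 4.42, 4.38, 3.99 and 4.96 across the mutants. Mutant 4 alone exceeded all wild types, and the difference was 0.34 (95% interval -0.05 to 0.73; limma adjusted p = 0.307). Without mutant 4 it was 0.17. Its transcripts are 95.8% identical over 1264 bases to those of Lyz1, its neighbour gene, so reads could be split between them. Lyz1 had 1 to 9 reads per library against 90 to 215 for Lyz2. Cd68 (ENSMUSG00000018774; chromosome 11) measured 1.03, 1.27, 1.83 and 1.73 log2 CPM across the wild types, against 0.71, 0.93, 1.61 and 1.84 across the mutants. The mutants covered the whole wild-type range, from 9 to 23 reads, and the difference was -0.19 (95% interval -0.81 to 0.43; limma adjusted p = 0.757). Of the 9 tested genes, Cd68 alone had a lower mean in the mutant, and in the 6 samples with shared numbers its difference was 0.01.

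Aif1 (ENSMUSG00000024397; chromosome 17) encodes IBA1, the calcium-binding protein whose antibody is the usual stain for microglia and tissue macrophages. Its reads numbered 1, 1, 8 and 3 across the wild types, against 5, 2, 4 and 7 across the mutants. These counts are near the detection floor of 3 reads, and no difference could be seen at this depth. In the fit without a filter its difference was 0.50 with a 95% interval from -0.33 to 1.34 (limma adjusted p = 0.637).

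**Figure D2:**
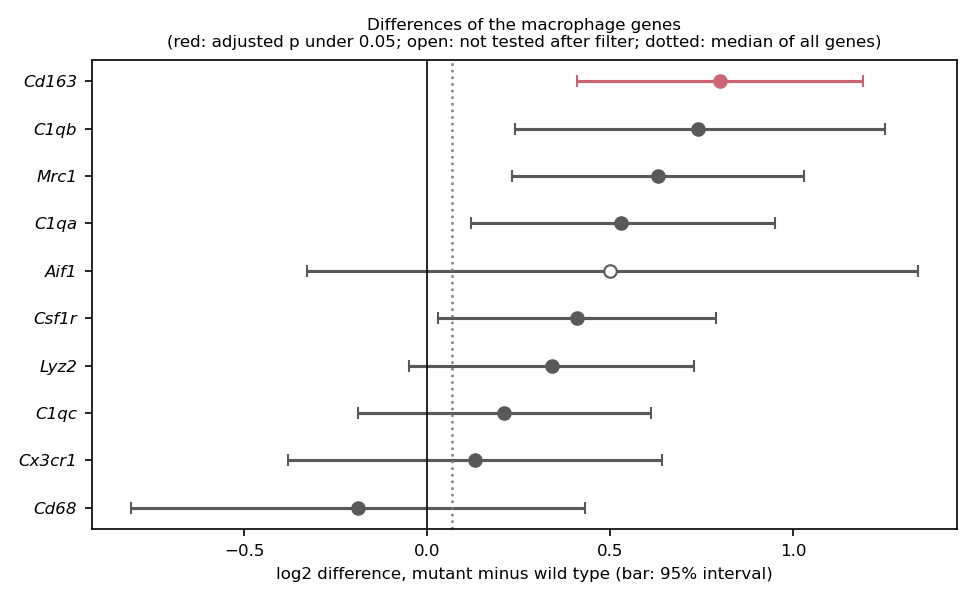
Log2 difference, mutant minus wild type, of each macrophage gene with its 95% interval from limma. Cd163, in red, is the called gene at 0.80, the intervals of C1qb, Mrc1, C1qa and Csf1r also lie above 0 without a call, and Aif1, open, comes from the fit without a filter.

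Levels of different genes were compared as CPM per kilobase of merged exons (GENCODE M21). In wild type the order was Lyz2 at 13 ± 2.97, C1qa at 6.71 ± 2.13, C1qb at 5.73 ± 2.09, C1qc at 4.4 ± 1.02, Csf1r at 2.86 ± 0.703, Cd68 at 2.02 ± 0.573, Mrc1 at 1.88 ± 0.627, Cd163 at 1.64 ± 0.409, Cx3cr1 at 0.809 ± 0.204 and Aif1 at 0.302 ± 0.323 CPM per kilobase (SD, n = 4). Lyz2 stood clear of C1qa, and Cd163 of Cx3cr1, while the ranges of all other neighbours in that order overlapped between samples. In the mutant Lyz2 was at 16.7 ± 4.83, C1qa at 9.62 ± 1.57, C1qb at 9.51 ± 2.51, C1qc at 5.14 ± 1.16 and Csf1r at 3.80 ± 0.884 CPM per kilobase. Below them Cd163 at 2.89 ± 0.644 and Mrc1 at 2.86 ± 0.50 came ahead of Cd68 at 1.79 ± 0.737, Cx3cr1 at 0.90 ± 0.281 and Aif1 at 0.439 ± 0.184. Cd163 thus went from the eighth to the sixth place, where its range overlapped those of Csf1r above it and Mrc1 below it.

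The samples were ordered alike by most of the genes, and Cd163 ordered the wild types differently. Wild type 4 was the highest wild type for 9 of the 10 genes and the lowest for Cd163. Mutant 4 was the highest mutant for 7 of the 10, and mutant 3 the lowest mutant for 6. The mean log2 CPM of the 9 tested genes ran 2.75, 2.81, 3.36 and 3.01 across the wild types, against 3.42, 3.27, 3.11 and 3.74 across the mutants. Wild type 4 therefore lay above mutants 2 and 3. Cd163 less the mean of the other 8 tested genes ran 0.99, 0.46, -0.53 and -0.04 across the wild types, against 0.97, 0.67, 0.51 and 0.52 across the mutants. The wild types spread over a wide range on this relative measure and the mutants over a narrow one inside it, and the difference was not tested. With the same measure taken for each of the 9, C1qb alone had groups that did not overlap. It stood at -0.80 to -0.16 across the wild types, against -0.12 to 0.13 across the mutants. That difference of 0.38 was not tested either. With wild type 4 and mutant 4 both left out, a setting chosen after the data were seen, Mrc1 at 0.73 (limma adjusted p = 0.0127) and C1qa at 0.69 (0.0472) passed and Cd163 at 0.63 (0.0886) did not.

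**Figure D3:**
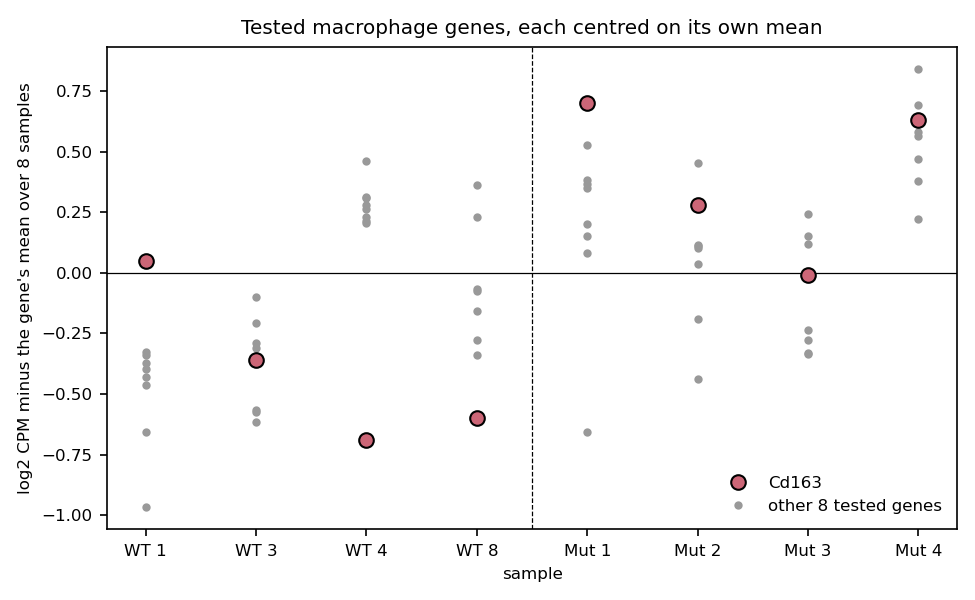
Log2 CPM of the 9 tested macrophage genes in each sample (horizontal axis), each less its own mean over the 8 samples, with Cd163 in red. In wild type 4 the other 8 genes lie above 0 and Cd163 is at its lowest, and in mutant 4 all 9 lie above 0.

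Lists of other cell types were compared with the macrophage genes by sample, and they did not all order the samples alike. Lists were ordered here by summed CPM, which abundant genes dominate, and not gene by gene or by mean log2 CPM as above. Summed over the 10 macrophage genes, CPM was 109 in wild type 4 against 71.0 to 80.7 in the other wild types. In mutant 3 that sum was 89.0 against 106 to 145 in the other mutants. Fibroblast genes summed to 1240 CPM in wild type 4 against 628 to 807 in the other wild types, and to 812 in mutant 3 against 985 to 1200 in the other mutants. Endothelial genes were likewise highest among wild types in wild type 4, at 109 against 74.7 to 87.6 CPM, and lowest among mutants in mutant 3, at 81.9 against 103 to 121. Wild type 4 was also the highest wild type for lymphocyte genes, at 65.3 against 22.5 to 28.1 CPM, and MHC class II genes, at 197 against 116 to 141. The same held for Schwann cell, red blood cell, complement, proliferation, adipocyte and central nervous system genes. Monocyte and neutrophil genes were highest in wild type 8, at 16.3 against 7.85 CPM in wild type 4. Skeletal muscle genes summed to 162 CPM in mutant 4 and to between 3.49 and 47.9 in the other samples, with 9.33 in wild type 4 and 34.8 in wild type 3. Satellite glia genes were highest among wild types in wild type 8, at 2250 against 1980 CPM in wild type 4, and pan-neuronal genes also, at 11100 against 10200. Lysosomal genes summed lowest among wild types in wild type 4, at 5030 against 5110 to 5370 CPM. Their mean log2 CPM there was 7.32, within 7.27 to 7.33 for the other wild types. The 25 general macrophage genes also summed lowest in wild type 4, at 478 against 485 to 522 CPM. Their mean log2 CPM was highest there, at 2.32 against 1.80 to 2.15. Of the fibroblast list 1 of 7 genes was called, Dcn, a matrix proteoglycan, at 0.60 (limma adjusted p = 0.00820), and the list's median was 0.34. The part of these cell types in the macrophage gene differences was not tested.

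Other macrophage genes were read from lists of named genes. Of 20 genes typical of resident scavenger macrophages, 12 were tested, 3 were called as higher and 0 as lower, with a median difference of 0.40. Among all tested genes 2.81% were called as higher and 2.64% as lower. F13a1, a coagulation factor subunit that tissue macrophages make, measured 2.34, 2.68, 2.94 and 2.48 log2 CPM across the wild types, against 3.61, 3.65, 2.85 and 3.81 across the mutants. It rose by 0.87 (SE 0.204; limma adjusted p = 0.0229), with mutant 3 below wild type 4. Stab1, a scavenger receptor of macrophages and sinusoidal endothelium, rose by 0.59 (SE 0.156; limma adjusted p = 0.0416). Selenop, a secreted selenium carrier made by many cell types, rose by 0.46 (SE 0.101; limma adjusted p = 0.0164), and its groups did not overlap. F13a1 was called in 13 of 21 alternatives, Stab1 in 10 and Selenop in 17. The F13a1 call was lost without wild types 1 or 8 or mutants 1, 2 or 4, at 0.76 to 0.83 (limma adjusted p of 0.0554 to 0.0774). That of Stab1 was lost without wild types 1, 3 or 8 or mutants 1, 2 or 4, at 0.47 to 0.59 (0.083 to 0.112), and that of Selenop without wild types 1 or 3 or mutant 1, at 0.42 to 0.44 (0.0539 to 0.0568). Lyve1, a hyaluronan receptor of vessel-associated macrophages and lymphatics, differed by 0.51 and was not called (limma adjusted p = 0.347). Mutant 3 was its lowest sample, at 1.75 against 3.0 to 3.47 in the other mutants and 1.86 to 2.60 in the wild types, and without mutant 3 the gene passed at 0.86 (0.0247). Lyve1 was called in 1 of 21 alternatives, with a limma adjusted p of up to 0.628. Folr2 had at most 3 reads in every library.

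Among the 25 general macrophage genes 1 was called as higher and 1 as lower, with a median of 0.27. Mertk, a receptor for engulfing dead cells that glia also use, rose by 0.73 (SE 0.20; limma adjusted p = 0.0467), a call kept in 8 of 21 alternatives. With 1 sample left out it held without wild type 8 or mutant 3, and was lost otherwise, at 0.52 to 0.76 (limma adjusted p of 0.0697 to 0.134). Ly86, partner of a Toll-like receptor homolog, fell by 0.50, with wild types at 5.57 to 5.73 log2 CPM and mutants at 4.98 to 5.41 (limma adjusted p = 0.00607). The call of Ly86 was kept in 20 of 21 alternatives. Ly86 averaged 51.1 CPM in wild type, against 4.74 for Ptprc and 3.27 for Adgre1. Which cells its reads came from was not tested. Ptprc at 0.52 (limma adjusted p = 0.273), Adgre1 at 0.32 (0.627) and Itgam, the integrin chain CD11b, at 0.18 (0.778) were not called. Of 8 genes named for microglia, 6 were tested and all 6 had higher means, with a median of 0.49. Olfml3, a secreted matrix protein, was the one called, at 0.46 (limma adjusted p = 0.0256), with 15 of 21 alternatives keeping the call. It was lost without wild types 1 or 3 or mutants 1 or 4, at 0.34 to 0.47 (limma adjusted p of 0.0518 to 0.0845).

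**Figure D4:**
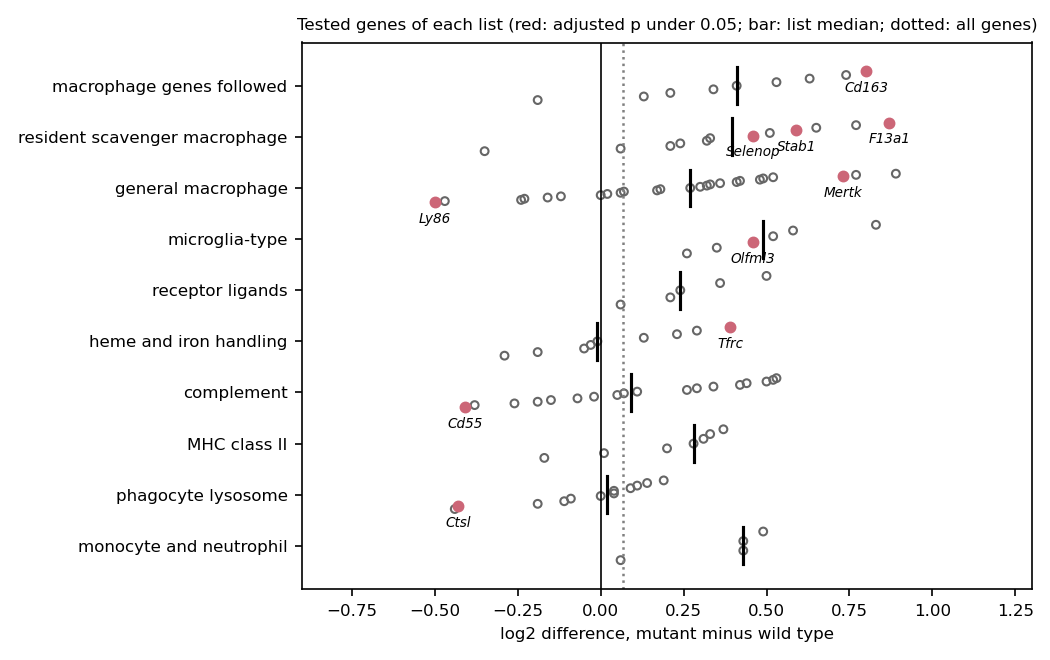
Log2 difference, mutant minus wild type, of each tested gene of 10 lists, with called genes in red, the list median as a bar and the median of all genes as a dotted line at 0.066. Medians are 0.41 for the 9 macrophage genes tested, 0.40 for resident scavenger genes and 0.27 for general macrophage genes. Called genes number 1 of 9, 3 of 12 and 2 of 25 in these lists, beside 5.46% of all tested genes.

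The ligands of these receptors were examined in the same fit, and 0 of 5 were called by limma or voom, with 1, Il34, at an unadjusted p under 0.05. Il34, one of the CSF1R ligands, measured 4.15, 4.14, 4.51 and 4.32 log2 CPM across the wild types, against 4.49, 4.76, 4.52 and 4.78 across the mutants, a difference of 0.36 (95% interval 0.12 to 0.60; limma adjusted p = 0.0750). Only mutant 1 lay under the highest wild type, and without wild type 4 the gene passed at 0.44 (0.0339). Il34 was called in 1 of 21 alternatives, with a limma adjusted p of up to 0.211. Csf1, the other ligand, differed by 0.06 (95% interval -0.18 to 0.30; limma adjusted p = 0.807) and by -0.03 under median centring of the samples. Cx3cl1, which encodes fractalkine, differed by 0.24 (limma adjusted p = 0.507), and Tnfsf12, whose product TWEAK is reported to bind CD163, by 0.21 (0.413). Hp, the haptoglobin gene, differed by 0.50 from 1 to 16 reads per library (limma adjusted p = 0.608).

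Genes that handle heme and iron, the cargo that CD163 brings in, were mixed in direction, with 4 higher and 5 lower means among 9 tested. Of these, 1 was called, the transferrin receptor gene Tfrc, which rose by 0.39 (SE 0.06; limma adjusted p = 0.00210) and is made by most cells. The median of the 9 was -0.01, and 4 had an unadjusted p under 0.05, Tfrc, Lrp1 at 0.29 and Blvrb at 0.23 with higher means and Hmox1 with a lower one. Hmox1, the heme-degrading enzyme, spanned 4.46 to 4.62 log2 CPM across wild types, against 3.94 to 4.50 across mutants, a difference of -0.29 that was not called (limma adjusted p = 0.159).

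The complement genes beyond C1q gave 1 call among 18 tested, and the median was 0.09. Cd55, which restrains complement on cell surfaces, fell by 0.41 (SE 0.0954; limma adjusted p = 0.0227), with mutants at 7.54 to 8.10 log2 CPM and wild types at 8.09 to 8.31. Its call was lost without wild types 3 or 8 or mutants 1 or 4, at -0.33 to -0.41 (limma adjusted p of 0.0553 to 0.068). Genes of MHC class II, which present antigen, had 0 calls among 7 by limma or voom, 0 at an unadjusted p under 0.05, and a median of 0.28, with H2-Aa at 0.31 (limma adjusted p = 0.336). Of 12 lysosomal genes tested 1 was called, the protease gene Ctsl, which fell by 0.43 (SE 0.101; limma adjusted p = 0.0221), and the median was 0.02. The Ctsl call was lost without wild type 3 or mutants 1, 2 or 4, at -0.36 to -0.44 (limma adjusted p of 0.0578 to 0.0719).

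Inflammatory mediators were close to the floor. Of 19 such genes 11 had at most 3 reads in every library, among them Tnf, Il6 and Nos2, and 0 of the 4 tested were called, with a median of -0.15. Il1b had 0 to 4 reads per library. Monocyte and neutrophil genes gave 0 calls among 4 tested, with Ccr2, the receptor of inflammatory monocytes, at 0.49 (limma adjusted p = 0.490). Lymphocyte genes gave 0 calls among 2 tested, dendritic cell genes 0 among 3, mast cell genes 0 among 5 and proliferation genes 0 among 4. Medians of these 5 lists were 0.43, 0.36, 0.04, 0.10 and 0.46. At an unadjusted p under 0.05 limma gave 1 gene of the inflammatory list, Chil3, 1 of the dendritic list, Clec9a, and 0 of the other 4 lists, and voom called 0 in all 6.

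Calls in the remaining cell type lists stand beside 5.46% of all tested genes called, 2.81% as higher and 2.64% as lower. Satellite glia gave 1 call among 7, Glul, at 0.49, and Schwann cells 2 among 8, Ncmap at 0.69 and Drp2 at 0.40, each of these as higher, with medians of 0.25 and 0.24. The Ncmap call was kept in 21 of 21 alternatives and that of Glul in 20. Pan-neuronal genes gave 1 call among 8, Avil at -0.22, with higher means for 4 of the 8 and lower means for 4. Endothelial, red blood cell, skeletal muscle, adipocyte and central nervous system lists gave 0 calls among 8, 5, 5, 2 and 3 tested genes, with medians of 0.19, 0.07, 1.66, 0.51 and 0.24. Voom also called 0 in these 5 lists, and at an unadjusted p under 0.05 limma gave 2, 0, 5, 0 and 2 genes. The calls of Drp2 and Avil were each lost in 4 of 8 fits with 1 sample left out, at 0.32 to 0.40 for Drp2 (without wild types 1 or 3 or mutants 1 or 4) and -0.21 to -0.22 for Avil (without wild types 1 or 3 or mutants 1 or 2). The oligodendrocyte gene Opalin had no reads in any library.

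Genes closest to Cd163 in shape were found by the root mean square distance between log2 CPM profiles over the 8 samples. Each profile was centred on its own mean. The search covered 13133 tested genes with a mean log2 CPM of at least 1, with the 10 macrophage genes left out beforehand. The nearest 5 were Sult1a1 at a distance of 0.189, mt-Tc at 0.208, Rn7sk at 0.211 and Pdk4 and Greb1 at 0.22. None of these 5 is in the other macrophage lists used here. Closest to the mean profile of the 9 tested genes were Glt8d2 at 0.062, Glb1l at 0.079, Ly6e at 0.085, Prkcdbp at 0.089 and Bace2 at 0.094, with differences between mutant and wild type of 0.29 to 0.47.

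**Figure D5:**
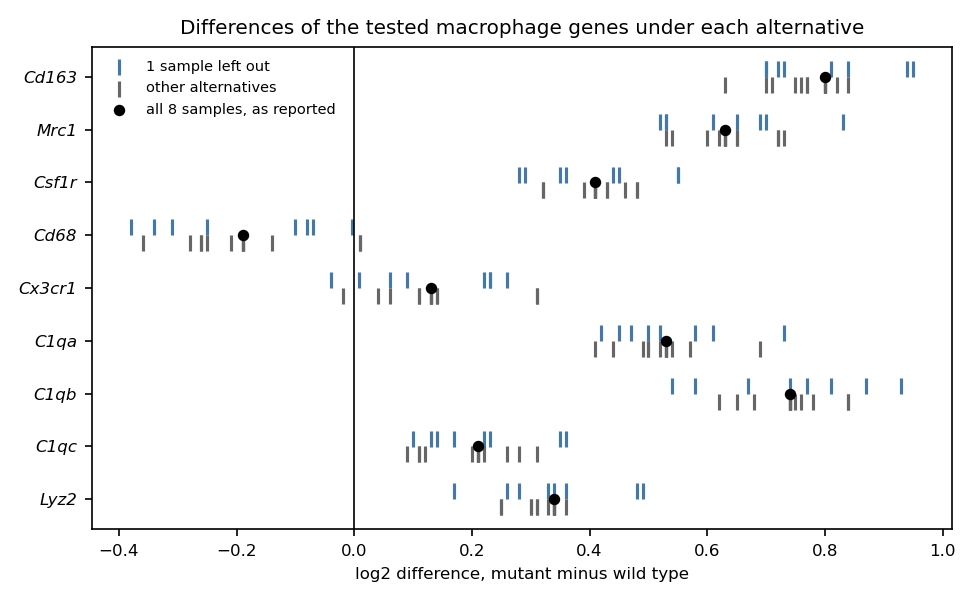
Log2 difference of each tested macrophage gene with all 8 samples (black), with 1 sample left out in turn (blue) and under the other alternatives (grey). Cd163 stays between 0.63 and 0.95, Mrc1 between 0.52 and 0.83, and Cd68 and Cx3cr1 reach both sides of 0.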

How the data were processed

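Values are log2 CPM with a prior count, in 1 table that the authors deposited, as its name and values show. The submitters' processing notes name Salmon 0.11.1, DESeq2 and the build mm9 without roles. Strand use and annotation release are not given in the sources used here. Each column name includes a serial number that no label explains, and those of the mutants follow one another, so a batch they might mark cannot be told apart from genotype. The 402 identifiers listed more than once held identical values and were used once. With the floor of -1.79 taken off on the linear scale, 100.0% of values up to 1000 reads were whole multiples of 1 read within 0.1, which gave back reads and library totals. Reads are not independent molecules, so floors cover counting error alone.

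Mutant and wild type were compared with limma 3.58.1 in R 4.3.3 (eBayes, trend = TRUE, two-sided, genotype as the sole term), with Benjamini-Hochberg adjustment over 15030 genes. On simulated reads of 15064 tested genes, 191 of the 200 changed 2-fold were called, and 7 unchanged genes were called besides. The simulation set a dispersion of 0.02 for every gene and drew the changed genes only from those above a minimum mean count. It therefore does not give the power for the 10 genes, whose spread and depth differ from those settings. The 10 genes and 23 further lists were chosen by name, with earlier results of these data known, so no list was tested as a set. Genes named are the 10, Tmem184b, the receptor ligands, called list genes, 10 reference genes, and the 5 profiles nearest to Cd163 and the 5 nearest to the mean of the tested genes. Outside that rule, list genes named for few reads or an unadjusted p (such as Cd3e, Tnf, Opalin, Chil3, Clec9a, Lrp1 and Blvrb) were chosen after their values were seen. Selenop was matched by identifier. Positions, exon lengths and transcript similarity (blastn 2.17.0) come from GENCODE M21 (GRCm38), which is not the build in the submitters' notes. Promoters come from RefSeq (GRCm38.p6) and were found for 8 of the 10 genes. Tables used Python 3.11.15, numpy 2.4.6 and pandas 2.3.3, and plots matplotlib 3.10.9. Alternatives covered the filter, the pseudocount, scaling, the variance trend, weighting of samples, Xist as covariate, voom on the recovered reads, thresholds, left-out samples and a replicate block. Replicates of a group differed by more than sampling noise (2.61 to 6.63 chi-square units per degree of freedom).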

Additional observations from a re-analysis of the deposited data

Results flagged for a closer look

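Among 100 groups of 4 values examined, a single sample stood far from the other 3 in 5 cases, and chance alone gives about 1 in 20 such groups. None of the 10 macrophage genes was among them. Ly86 was at 5.57 log2 CPM in wild type 4 against 5.71 to 5.73 in the other wild types. Csf1 was at 4.31 in mutant 3 against 4.50 to 4.52 in the other mutants. Hp was at 0.85 in wild type 8, from 12 reads against 3 to 4 in the other wild types. Sult1a1 was at 3.24 in wild type 4 against 3.66 to 3.75, and mt-Tc at 1.94 in wild type 8 against 2.20 to 2.24.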

How the results depend on the processing

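Under alternatives that kept all samples, Cd163 was the called gene of the 10, except that 0 were called without the mean-variance trend and 3 (Cd163, Mrc1 and C1qb) at an adjusted p under 0.1. Leaving out 1 sample in turn gave 0 to 4 called genes: 4 without wild type 4 (Cd163, Mrc1, C1qa and C1qb) and 0 without wild type 8, mutant 1 or mutant 4. With wild type 4 and mutant 4 both left out 2 were called. The median of the tested genes stayed between 0.29 and 0.55. Over all genes, higher and lower calls were 204 and 706 under median centring, which lowers the share of higher calls from 51.6% to 22.4%, 67 and 75 without the trend, 876 and 612 at an adjusted p under 0.1, and 192 and 136 with a difference of at least 0.5 as well. Quantile normalization gave 271 higher calls and a share of 39.1%. Without 1 sample, higher calls ranged from 174 to 572 and lower calls from 230 to 427. The cause was not tested. Voom on the recovered reads called 415 and 399. The planned quasi-likelihood count test was not run.

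The numbers 1, 3 and 4 are shared by both genotypes, and no label says whether they pair the mice. Deviations of same-numbered samples from their group means correlated at 0.0806, 0.0414 and 0.0575 over the tested genes. Such correlations cannot decide whether the mice were paired. When the number entered as a replicate block, 3 of the 10 genes were called (Cd163, Mrc1 and C1qb), and 326 genes were higher and 345 lower in all. In the same 6 samples with no replicate block 0 of the 10 were called, and 180 genes were higher. Both fits gave 0.01 for Cd68, -0.00917 for Itgam and -0.00878 for Csf1, each a change of sign.

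Other changes of sign were Cx3cr1 at -0.02 under quantile normalization and -0.04 without mutant 4 (-0.04 to 0.26 with 1 sample left out), Itgam at -0.01 without mutant 2 (-0.01 to 0.47), and Csf1 at -0.03 under median centring and -0.02 under quantile normalization. Depth limits Aif1 and Cd68 most, at 1 to 8 and 9 to 24 reads per library.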
